A study of Mus musculus with 12 samples.

Results

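Embryonic globin and erythroid genes were followed in mouse primordial germ cells (PGCs) and in PGC-like cells (PGCLCs) derived in culture. The set held 6 genes of the 18194 that had a probe set of their own: the embryonic globin genes Hba-x, Hbb-y and Hbb-bh1, the haem synthesis gene Alas2, and the transcription factor genes Gata1 and Klf1. They were chosen because earlier results on these 12 arrays had shown embryonic globin signal in PGCs, so their levels are given below as a description, without a test. Each gene was represented by the probe set annotated to it alone that had the highest mean over the 12 arrays, and all 6 passed the filter on dim genes.

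RNA from 6 groups, with 2 biological replicates each, was hybridised to 1 Affymetrix mouse array per replicate. The PGCs came from embryos of C57BL/6 males carrying a stella-EGFP reporter mated with wild-type BDF1 females. They were taken at embryonic day 9.5 (E9.5, sex not given in the labels) and, from female embryos, at embryonic day 12.5 (E12.5). The PGCLCs carried the BVSC transgenes (Blimp1-mVenus and stella-ECFP reporters) on a C57BL/6 background and were induced from embryonic stem cells. They were female cells at day 3 (d3), female and male cells at day 6 (d6 female, d6 male), and female d3 cells kept for 6 further days in aggregates with female E12.5 gonadal somatic cells (d3ag6). All groups were sorted by the fluorescence of their reporters, so the gate was set on the reporter and not on any blood cell marker. The cDNA of each array was amplified from 5 ng of RNA, an amount equal to 500 cells. Strain and origin cannot be told apart in any comparison of PGCs with PGCLCs. The labels also give each array a code: d3, d6 female, d3ag6 and E12.5 share EA1013, while E9.5 and d6 male both have replicate 1 under EA0831 and replicate 2 under EA0842. E9.5 against d6 male is therefore balanced over codes, whereas code and group cannot be told apart for E9.5 against d6 female or against E12.5.

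Haemoglobin is built from alpha-like and beta-like chains, each holding a haem. The first red cells of the mouse embryo arise in the yolk sac, enter the circulation while still nucleated and make the embryonic chains: the alpha-like zeta chain, encoded by Hba-x, and the beta-like chains encoded by Hbb-y (epsilon-y) and Hbb-bh1 (beta-h1). Later red cells, made first in the fetal liver, use the adult chains encoded by Hba-a1, Hba-a2 and the adult beta genes. Signal of the adult genes is not taken here as a mark of later red cells as against early ones. Alas2 encodes the erythroid form of the enzyme that starts haem synthesis. Gata1 and Klf1 encode transcription factors that bind GATA and CACCC motifs at globin and haem genes. PGCs at E9.5 lie in and around the hindgut on their way to the genital ridges, which they have colonised by E12.5. Whether red cells or their RNA were carried through the sort was not tested.

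The genes lie in separate clusters. In GRCm38.p6, Hbb-y (chr7:103851754-103853207) and Hbb-bh1 (chr7:103841638-103843162) are neighbours on chromosome 7, and Hba-x is on chromosome 11 (chr11:32276600-32278116). Alas2 (chrX:150547417-150570622) and Gata1 (chrX:7959260-7976663) are both on chromosome X, and Klf1 is on chromosome 8 (chr8:84901982-84905291). The 250 bases before the annotated start are shown for 4 genes that differed in level between E9.5 PGCs and PGCLCs, since the factors encoded by Gata1 and Klf1 are themselves among the genes measured. Sequences are those of RefSeq (GRCm38.p6), 5′ to 3′ on the strand of the gene. Capitals mark a GATA motif (the letters GATA with A or T before them and A or G after them), a CACCC or a CCAAT, on either strand, and no match overlapped another. Hba-x is chr11:32276350-32276599 (plus strand), Hbb-y is chr7:103853208-103853457 (minus), Alas2 is chrX:150547167-150547416 (plus) and Klf1 is chr8:84901732-84901981 (plus).
Hba-x: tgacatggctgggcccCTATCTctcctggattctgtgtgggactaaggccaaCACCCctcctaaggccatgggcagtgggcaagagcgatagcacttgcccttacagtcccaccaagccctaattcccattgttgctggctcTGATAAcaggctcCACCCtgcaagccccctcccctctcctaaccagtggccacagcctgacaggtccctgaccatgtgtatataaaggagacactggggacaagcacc
Hbb-y: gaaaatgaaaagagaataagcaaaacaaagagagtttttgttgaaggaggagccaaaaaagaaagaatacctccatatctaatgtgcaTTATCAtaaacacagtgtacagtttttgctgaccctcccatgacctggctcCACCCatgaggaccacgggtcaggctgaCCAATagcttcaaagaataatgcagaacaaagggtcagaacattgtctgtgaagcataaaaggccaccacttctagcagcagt
Alas2: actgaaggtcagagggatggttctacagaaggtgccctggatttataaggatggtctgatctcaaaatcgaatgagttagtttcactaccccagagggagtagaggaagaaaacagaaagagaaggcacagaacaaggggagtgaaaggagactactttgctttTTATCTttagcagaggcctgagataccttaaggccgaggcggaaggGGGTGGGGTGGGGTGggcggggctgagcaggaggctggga
Klf1: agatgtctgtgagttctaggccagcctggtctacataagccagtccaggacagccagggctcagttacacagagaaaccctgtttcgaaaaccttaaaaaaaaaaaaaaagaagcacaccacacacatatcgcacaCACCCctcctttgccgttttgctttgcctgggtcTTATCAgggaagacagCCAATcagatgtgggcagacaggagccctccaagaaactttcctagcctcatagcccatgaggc
The Hba-x window held 2 GATA motifs and 2 CACCC, and that of Hbb-y held 1 GATA motif, 1 CACCC and 1 CCAAT. The Alas2 window held 1 GATA motif and 3 CACCC, which stand side by side on the minus strand. In the Klf1 window there were 1 GATA motif, 1 CACCC and 1 CCAAT. The Gata1 window (chrX:7967911-7968160, minus strand) lies within the span given above for the gene, not beyond its outer end. It held 2 CACCC and neither of the other motifs. Of all 32851 RefSeq windows of this length, 26.5% held a GATA motif, 52.0% a CACCC, 33.8% a CCAAT, and 11.8% both a GATA motif and a CACCC. These are matches of letters only.

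Levels are log2 signals after quantile normalization, and 4.81, the median of all values, served as the line below which a gene counts as dim. The arrays give no detection call, so a level under that line cannot be told from background. Differences between groups are given on the log2 scale, and levels of different probe sets are not compared with each other.

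E9.5 PGCs had embryonic globin RNA far above every other group. In E12.5 PGCs a smaller signal was left, which for Hbb-bh1 depended on the probe set. In the PGCLCs there was none that rose above the dim line for Hba-x and Hbb-y. Alas2 was above that line in E9.5 PGCs alone, Klf1 was slightly higher there, and Gata1 lay between 5.19 and 5.86 in all 6 groups.

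Hba-x, the zeta chain gene, measured 12.73 and 11.73 in the E9.5 arrays, a mean of 12.23 ± 0.71 (SD, n = 2). In E12.5 PGCs it measured 6.53 and 5.57, a mean of 6.05 ± 0.68 (SD, n = 2). Both E9.5 arrays lay above both E12.5 arrays, and these lay above all PGCLC arrays. The levels were 4.31 and 3.96 in d3 cells, 4.22 and 4.57 in d6 female cells, 4.55 and 4.64 in d6 male cells, and 3.51 and 4.04 in d3ag6 cells. Neighbouring PGCLC groups overlapped, and 0 of the 8 PGCLC arrays passed 4.81. The E9.5 mean exceeded that of d6 male cells by 7.64, or 199-fold. With values under the dim line set to it, the excess was 7.42, or 171-fold. It exceeded the E12.5 mean by 6.18, or 72.7-fold.

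Hbb-y, the epsilon-y chain gene, measured 12.54 and 11.42 at E9.5 (11.98 ± 0.79, SD, n = 2). At E12.5 it measured 6.98 and 5.97 (6.48 ± 0.72, SD, n = 2). The 8 PGCLC arrays ran from 0.69 to 3.30 with a median of 2.67, all dim. Within these, d6 male cells held both the lowest and the highest value, 0.69 and 3.30, so no order among the PGCLC groups can be read. The Hbb-y excess of E9.5 over d6 male was 9.98 as measured. With dim values set to the line it was 7.16, or 143-fold, under that of Hba-x. The other two Hbb-y probe sets showed the same ordering: 1436717_x_at measured 13.18 and 12.40 at E9.5 and 8.69 and 6.71 at E12.5, against at most 2.81 in PGCLCs.

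Hbb-bh1, the beta-h1 chain gene, measured 11.52 and 9.64 at E9.5 (10.58 ± 1.33, SD, n = 2). At E12.5 the values were 6.35 and 6.40, and in the 8 PGCLC arrays they ran from 5.14 to 5.90 with a median of 5.49. The E9.5 arrays were again the highest and the E12.5 arrays lay above all PGCLC arrays, which overlapped one another. The excess of E9.5 over d6 male was 5.06, or 33.2-fold, and over E12.5 it was 4.20, or 18.4-fold. The 3 Hbb-bh1 probe sets did not give the same size. On 1450736_a_at, where PGCLC arrays ran lower, from 2.49 to 3.73, the excess over d6 male was 7.79. They also disagreed at E12.5: that probe set measured 3.68 and 3.23 there, within the range of the PGCLCs, and E12.5 exceeded d6 female by 0.15 on it against 0.94 on the probe set with the highest mean. On the last of the 3, 1437990_x_at, E12.5 arrays measured 4.92 and 5.03, also within the range of the PGCLCs, 2.047 to 5.205. The E12.5 signal of Hbb-bh1 thus rests on the choice of probe set. That of Hbb-y does not, as all 3 probe sets of E12.5 PGCs were above 4.81.

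**Figure D1:**
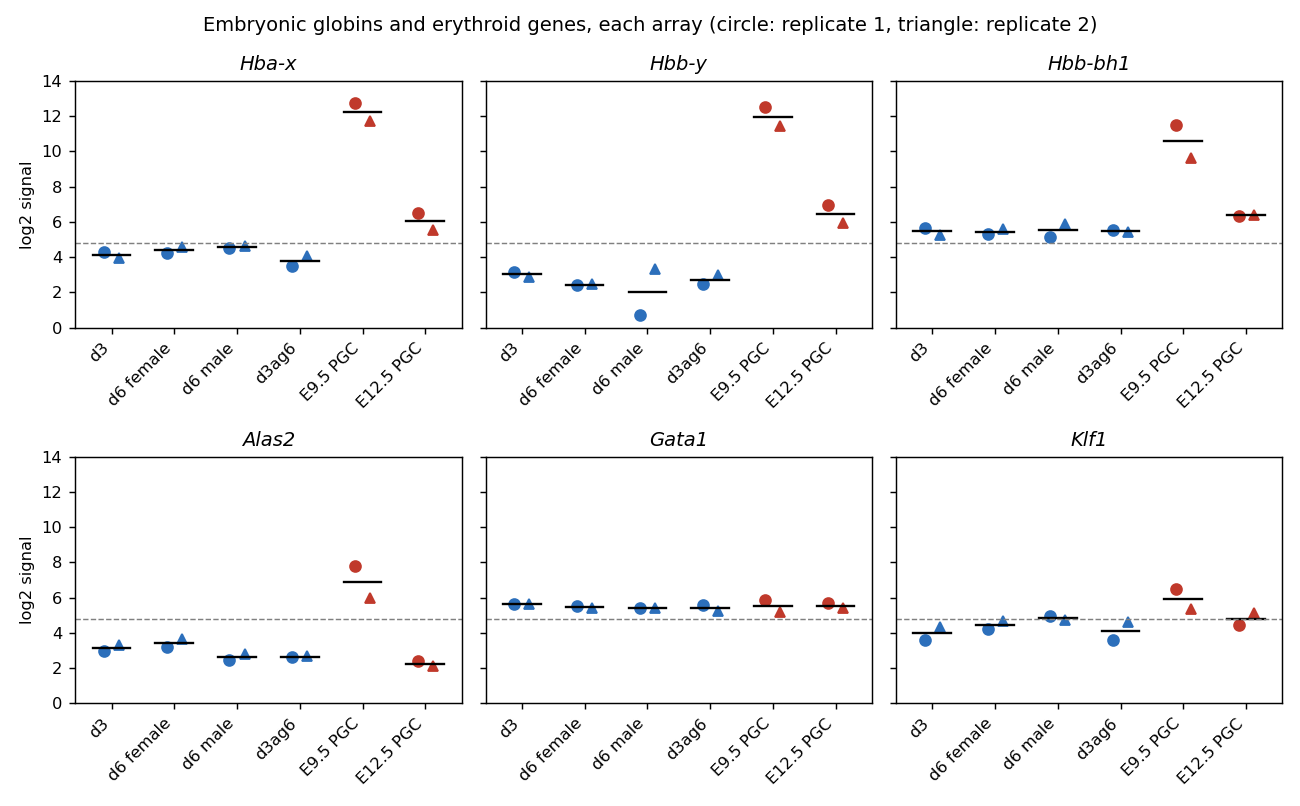
Log2 signal of the 6 genes in each of the 12 arrays (vertical axis) by group (horizontal axis); circles are replicate 1, triangles replicate 2, black bars group means, red marks PGCs and blue marks PGCLCs, and the dashed line is the dim line at 4.81. The 3 globin genes stand at 9.64 to 12.73 in E9.5 PGCs, while Gata1 stays between 5.19 and 5.86 in all groups.

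Alas2, whose enzyme supplies haem to the growing red cell, measured 7.80 and 5.96 in E9.5 PGCs (6.88 ± 1.3, SD, n = 2). The other 10 arrays were all dim, with 2.40 and 2.10 at E12.5 and 2.48 to 3.67 in the PGCLCs. E9.5 exceeded d6 male by 4.25 as measured, and by 2.06, or 4.18-fold, with dim values set to the line. Unlike Hba-x and Hbb-y, Alas2 was no higher at E12.5 than in PGCLCs. Its E12.5 arrays lay below those of d6 female cells, at levels too low to tell from background.

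Klf1, whose factor is needed for adult beta globin expression, measured 6.47 and 5.35 at E9.5 (5.91 ± 0.80, SD, n = 2). At E12.5 it measured 4.46 and 5.15. The PGCLC arrays ran from 3.60 to 4.94, and only 1 of the 8, a d6 male array, was above 4.81. The lower E9.5 array exceeded the highest array of any other group, at E12.5, by less than the distance between the E9.5 replicates. The excess over d6 male was 1.08, or 2.11-fold.

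Gata1, the master regulator of red cell differentiation, showed no such excess. It measured 5.86 and 5.19 at E9.5, 5.71 and 5.38 at E12.5, and 5.22 to 5.63 in the 8 PGCLC arrays. The E9.5 arrays spanned the whole range of the others, and their mean differed from that of d6 male cells by 0.14.

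The same picture held within each array code, where E9.5 and d6 male can be set against each other array by array. Hba-x was higher in E9.5 by 8.18 under EA0831 and by 7.10 under EA0842. The corresponding differences were 11.8 and 8.12 for Hbb-y, 6.37 and 3.74 for Hbb-bh1, and 5.32 and 3.18 for Alas2. For Klf1 they were 1.53 and 0.62, and for Gata1 0.48 and -0.19, which have opposite signs. For all 6 genes the difference was larger under EA0831, which holds replicate 1.

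**Figure D2:**
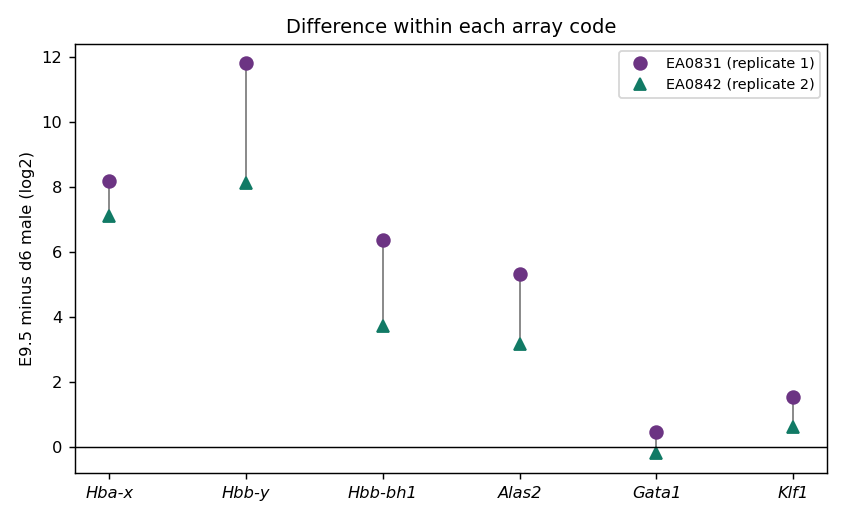
Difference in log2 signal, E9.5 PGCs minus d6 male PGCLCs (vertical axis), for each gene (horizontal axis) within array code EA0831 (circles, replicate 1) and EA0842 (triangles, replicate 2). All genes but Gata1 lie above 0 under both codes, from 0.62 for Klf1 to 11.8 for Hbb-y.

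The E9.5 replicates themselves differed in these genes. Replicate 1 exceeded replicate 2 for 6 of 6 genes, by a median of 1.12 and a range of 0.67 to 1.88. Over all genes tested, 52.6% were higher in replicate 1, with a median of 0.03, and over the other erythroid genes described below 19 of 43 were. The mesenchyme markers moved with the globins: 8 of 9 were higher in replicate 1, by a median of 0.94. Other marker lists described below leaned the same way by less. These were leukocytes and macrophages (7 of 11, median 0.45), endothelium (10 of 13, 0.16), and megakaryocytes and platelets (3 of 5, 0.21). Visceral endoderm and fetal liver did so too (4 of 5, 0.19). Germ cell markers (3 of 9, -0.19) and the 1 mast cell marker did not. The part of these markers in the difference was not tested. Over the 12 arrays, Pearson's r was 0.96 between Hba-x and Hbb-y, 0.98 between Hba-x and Hbb-bh1, and 0.95 between Hbb-y and Hbb-bh1. With the globins, Alas2 reached 0.81 to 0.92, Klf1 0.73 to 0.81 and Gata1 0.18 to 0.26. These values share the E9.5 arrays as their high end and are a description.

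Counted over arrays, both E9.5 values lay above both values of d6 male, of d6 female and of E12.5 for 5 of the 6 genes, the exception in each being Gata1. Such separation occurred in the higher direction for 20.9%, 22.9% and 28.6% of all genes tested. In the lower direction 0 of the 6 separated, where 22.8%, 32.1% and 36.3% of all genes did. The comparisons share the E9.5 arrays, and the genes were chosen for this pattern, so nothing is read from the counts. E12.5 lay above d6 female for the 3 globins (33.1% of all genes) and below it for Alas2 (34.3%). For Hbb-bh1 the separation held only on the probe set with the highest mean. Hba-x exceeded d6 female at E12.5 by 1.65 and Hbb-y by 4.04, or by 1.23 and 1.66 with dim values set to the line.

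The PGCLC groups carried no globin difference that can be read. Aggregation with gonadal somatic cells left Hba-x and Alas2 below d6 female on both d3ag6 arrays, 2 of the 6 genes where 28.1% of all genes lay lower, and left 0 of 6 above it (30.7%). Both genes were dim in both groups. Between d3 and d6 female cells 0 of 6 were higher at d6 (22.3%) and 2 were lower, Hbb-y and Gata1 (24.9%). Hbb-y was dim in both, and Gata1 differed by -0.18. Some markers of another blood lineage were high in d3ag6 cells. Tyrobp, a signalling adaptor gene of myeloid cells, measured 9.13 and 9.33 in d3ag6 and less in each of the other 10 arrays. It rose by 1.86 against d6 female cells (adjusted p = 0.00309, limma), where 4.03% of all genes tested rose, a call kept when any 1 array was left out. It was the 1 call among the 8 leukocyte and macrophage markers whose filter did not rest on d3ag6. Cd14, Lyz2 and Ctss passed the filter only through d3ag6, so they are given as levels. Lyz2, the macrophage lysozyme, measured 7.91 and 8.45 in d3ag6 and 3.53 to 4.79 in the other 10 arrays. Ctss measured 8.56 and 9.13 in d3ag6 and 6.75 on 1 E9.5 array, and was dim on the other 9. Tyrobp, Cd14, Lyz2 and Ctss were named after their values were seen. Hba-x and Hbb-y were dim on both d3ag6 arrays.

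The adult globin genes gave a measurement that did not enter the choice of the 6 genes. Several of their probe sets are annotated to more than 1 gene, because the copies are nearly identical, and these were tested in a fit of all 25664 probe sets that passed the filter, added after the gene level results were seen. In that fit 7.01% of probe sets differed between E9.5 and d6 male at adjusted p under 0.05, 3.09% in the higher direction. Of the 3 probe sets annotated to both Hba-a1 and Hba-a2, the 2 that passed the filter through other groups too rose in E9.5 PGCs, and so did the 1 annotated to 4 adult beta genes (Hbb-b1, Hbb-b2, Hbb-bs and Hbb-bt).

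On 1452757_s_at, one of the shared alpha probe sets, E9.5 arrays measured 12.57 and 11.03, E12.5 arrays 8.36 and 6.80, and PGCLC arrays 5.26 to 6.10. E9.5 exceeded d6 male by 6.13 ± 0.58 (SE), with an adjusted p of 0.00084 (limma), and E12.5 by 4.22, with an adjusted p of 0.00224. Another alpha probe set, 1428361_x_at, exceeded d6 male by 5.82 (adjusted p = 0.00154, limma). Both calls were kept when any 1 array was left out. The last, 1417714_x_at, measured 9.89 and 6.94 at E9.5 and was dim on the other 10 arrays. It passed the filter only through E9.5, so its call is no support; its excess over d6 male was 3.60 with dim values set to the line. The beta probe set, 1417184_s_at, measured 9.87 and 8.16 at E9.5, 7.61 and 6.03 at E12.5, and 5.17 to 5.82 in PGCLCs. Its excess over d6 male was 3.50 ± 0.62 (SE, adjusted p = 0.0119, limma), and this call was lost without E9.5 replicate 1 or d6 male replicate 2, when the adjusted p reached 0.0766.

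At E12.5 the shared adult probe sets lay above every PGCLC array, but the difference from d6 female did not pass the test. It was 1.81 and 1.96 on the alpha probe sets 1428361_x_at and 1452757_s_at and 1.44 on the beta probe set, with adjusted p of 0.0936, 0.0575 and 0.169 (limma); 14.3% of all probe sets passed in this comparison and 7.24% were called higher. The E12.5 replicates were far apart, replicate 1 exceeding replicate 2 on all 4. With 1 array left out, the adjusted p of these alpha probe sets ran from 0.0309 to 0.467 and was highest without E12.5 replicate 1. Both passed without E12.5 replicate 2, and 1452757_s_at passed without either E9.5 array. E9.5 against E12.5 passed on the same 3 (19.1% of all probe sets passed and 8.77% were called higher), but the beta call, 2.20 with an adjusted p of 0.0396 (limma), was lost without 8 of the 12 arrays. Probe sets naming only 1 adult gene read differently. Hba-a2 (1427219_at) measured 5.41 and 5.80 at E9.5, its highest 2 values of the 12. In the same fit it did not pass against d6 male, at 0.84 with an adjusted p of 0.231 (limma), and it passed against E12.5, at 1.69 with an adjusted p of 0.0124 (limma). The latter call was lost without either E12.5 array or E9.5 replicate 2, at up to 0.0708. Hba-a1 (1453574_at) and Hbb-b2 (1427865_at) were dim on all 12 arrays. Shared and single probe sets of the alpha genes thus differ in size, and copies cannot be told apart.

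**Figure D3:**
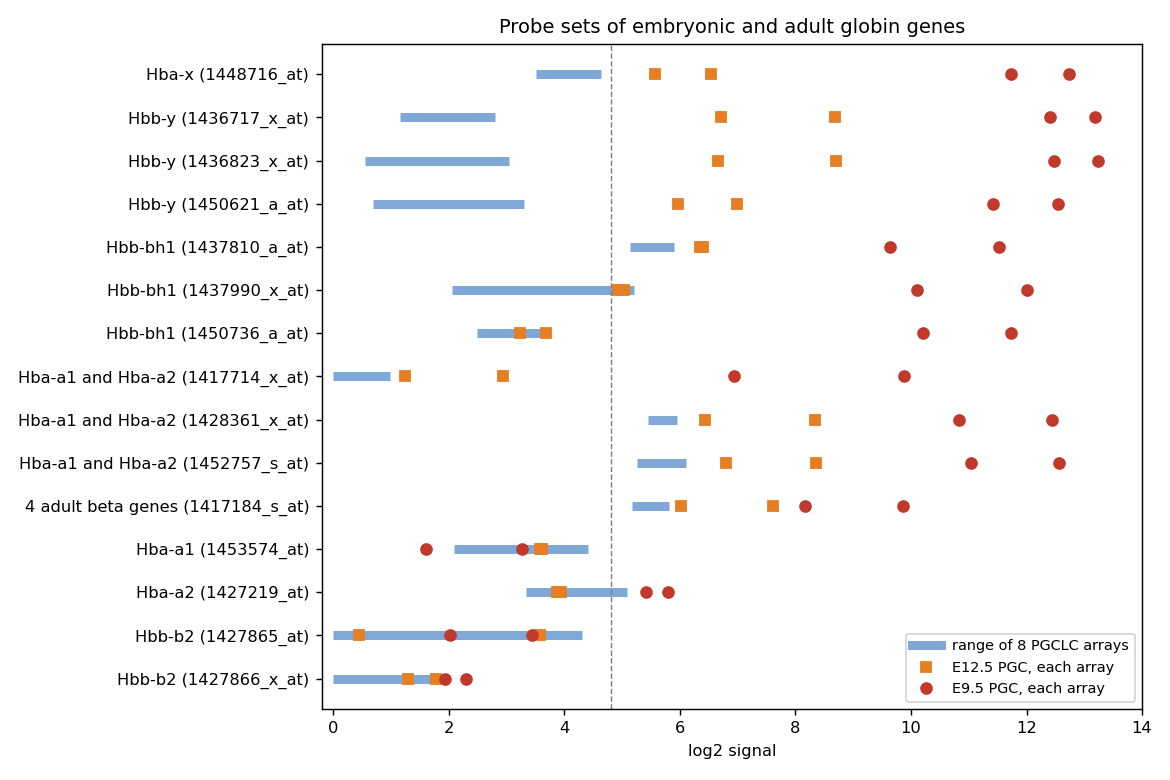
Log2 signal (horizontal axis) of every embryonic and adult globin probe set (rows); blue bars span the 8 PGCLC arrays, orange squares are the E12.5 and red circles the E9.5 arrays, and the dashed line is the dim line at 4.81. The shared adult alpha probe set 1452757_s_at reaches 12.57 at E9.5, while those naming only Hba-a1 or Hbb-b2 stay dim in all groups.

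The other erythroid genes came from lists chosen with earlier results of these data known: adult globins, haem synthesis and iron, red cell membrane, regulators, and further red cell genes. Of 76 listed, 60 had a probe set of their own and 43 were tested. In E9.5 against d6 male 4 were called higher and 2 lower, or 9.30% and 4.65%, where 4.55% and 6.04% of all genes were (10.6% in all). Hemgn passed the filter only through E9.5, and Hebp1 only through 1 d6 male and 1 d6 female array. Without them 3 of 41 rose and 2 fell. The median difference of the 43 was 0.01, beside 0.004 for all genes. This median did not follow the globins. It leaves out the listed genes that failed the filter, and it includes genes far above the dim line in every group, such as Alad, Tfrc and Fech.

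Among the red cell membrane genes 1 of 11 rose, Slc4a1, which encodes band 3, the anion exchanger of the red cell. It measured 7.24 and 5.91 in E9.5 PGCs and 3.86 to 5.75 in the other 10 arrays, so both E9.5 arrays were the highest. Its excess over d6 male was 2.46 ± 0.41 (SE, adjusted p = 0.0058, limma). The call was kept when any 1 array was left out, with adjusted p of at most 0.0409. It did not pass against d6 female, at 1.21 and adjusted p of 0.0865 (limma). Of the 19 membrane genes on the arrays, 7 were dim on both E9.5 arrays: Epb42, Add2, Rhag, Aqp1, Slc14a1, Cldn13 and Tspo2. Rhag, of the Rh complex, was nevertheless highest there, at 4.55 and 3.67 against 1.94 to 3.10. Tmod1, which caps actin filaments of the membrane skeleton, measured 5.52 and 4.16 at E9.5 and 2.60 to 4.42 elsewhere. These 8 were named after their values were seen.

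Among the 12 regulators 2 were called, Hemgn and Gata2. Hemgn, a nuclear protein of blood precursors, measured 6.66 and 5.37 at E9.5 and 0.28 to 2.64 elsewhere, all of which is dim. With dim values set to the line, it exceeded d6 male, d6 female and E12.5 by 1.20 each. It passed the filter on dim genes only through its E9.5 arrays, so its call in these comparisons had to follow and is not used as support. Gata2, a factor of blood stem and precursor cells that is also made in other cells, went the other way. It measured 9.18 and 9.44 at E9.5 and 9.50 to 11.21 elsewhere, and it fell by 1.03 against d6 male (adjusted p = 0.00452, limma), a call kept when any 1 array was left out. Gfi1b, Nfe2, Ikzf1 and Epor, the erythropoietin receptor gene, were dim on all 12 arrays.

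Among the 14 haem and iron genes 2 rose and 1 fell in E9.5 against d6 male. Fech, whose enzyme puts iron into haem as the last step, measured 8.36 and 8.45 at E9.5 and 9.52 and 9.64 in d6 male cells. It fell by 1.17 ± 0.18 (SE, adjusted p = 0.00387, limma), opposite in direction to the difference in Alas2, and was kept when any 1 array was left out. Alad and Uros, of earlier steps, rose by 0.67 and 0.78 (adjusted p of 0.044 and 0.0351, limma), calls lost without 10 and 9 of the 12 arrays. Among the 5 further red cell genes 0 passed by limma in this comparison (1 at unadjusted p under 0.05). In a fit of the 4 arrays under EA0831 and EA0842 with the code as a block, added after the results were seen, 3 of the 43 passed, Fech, Gata2 and Zfpm1, all lower in E9.5. The adjusted p of Slc4a1 was 0.08 in that fit.

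Against E12.5, 9 of the 43 rose in E9.5 and 5 fell, or 20.9% and 11.6%, beside 10.7% and 12.9% of all genes tested (23.6% in all). Hemgn was 1 of the 9, through the filter as above. Car2, which encodes a carbonic anhydrase found in red cells and in many epithelia, rose by 3.14 (adjusted p = 0.00211, limma) and was kept when any 1 array was left out. Its level in E9.5, 9.02 and 8.38, was also that of d6 male cells, 8.88 and 8.71, so it did not follow the globins. Hba-a2, Urod, Slc25a37, Slc25a38, Tfrc, Blvrb and Slc4a1 were the other 7 that rose. The genes lower in E9.5 were Fech, Gypc, Tspan33, Zfpm1 and Gata2, the last by 1.88 (adjusted p = 0.000153, limma). The count of 14 fell to 5 without E12.5 replicate 1, to 4 without E12.5 replicate 2 and to 8 without E9.5 replicate 1.

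Against d6 female, 2 rose in E9.5 (Lmo2 and Hemgn, the latter through the filter as above) and 7 fell (Fech, Blvrb, Gypc, Tspan33, Zfpm1, Cbfa2t3 and Gata2), or 4.65% and 16.3%, beside 5.6% and 8.33% of all genes. The 9 calls became 3 without d6 female replicate 1, 2 without replicate 2, 4 without either E12.5 array and 3 without E9.5 replicate 1. Without E9.5 replicate 2, d3ag6 replicate 1 or d3ag6 replicate 2 they were 6. Beside Hemgn, Gata2 was the 1 call kept when any 1 array was left out. In E12.5 against d6 female 4 rose (Alad, Lmo2, Gata2 and Xpo7) and 6 fell (Ppox, Tfrc, Slc11a2, Hebp1, Blvrb and Car2, of which Hebp1 passed the filter only through the d6 groups), or 9.30% and 14%, beside 9.33% and 10.1% of all genes. Blvrb, a reductase abundant in red cells, fell by 2.08 (adjusted p = 0.0012, limma) and was the 1 call of these 10 kept when any array was left out. The 10 calls became 3 without d6 female replicate 1, 5 without its replicate 2, 3 without E12.5 replicate 1 and 2 without E12.5 replicate 2. In d3ag6 against d6 female Car2 fell by 3.21 (adjusted p = 0.00671, limma; 2.36% of all genes fell and 6.39% changed), a call lost without d6 female replicate 1 at 0.0556. In d6 female against d3 Gata2 rose by 0.99 (adjusted p = 0.0122, limma; 1.72% of all genes rose, 2.34% fell and 4.06% changed), lost without d3 replicate 2 or d6 female replicate 1 at up to 0.111.

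**Figure D4:**
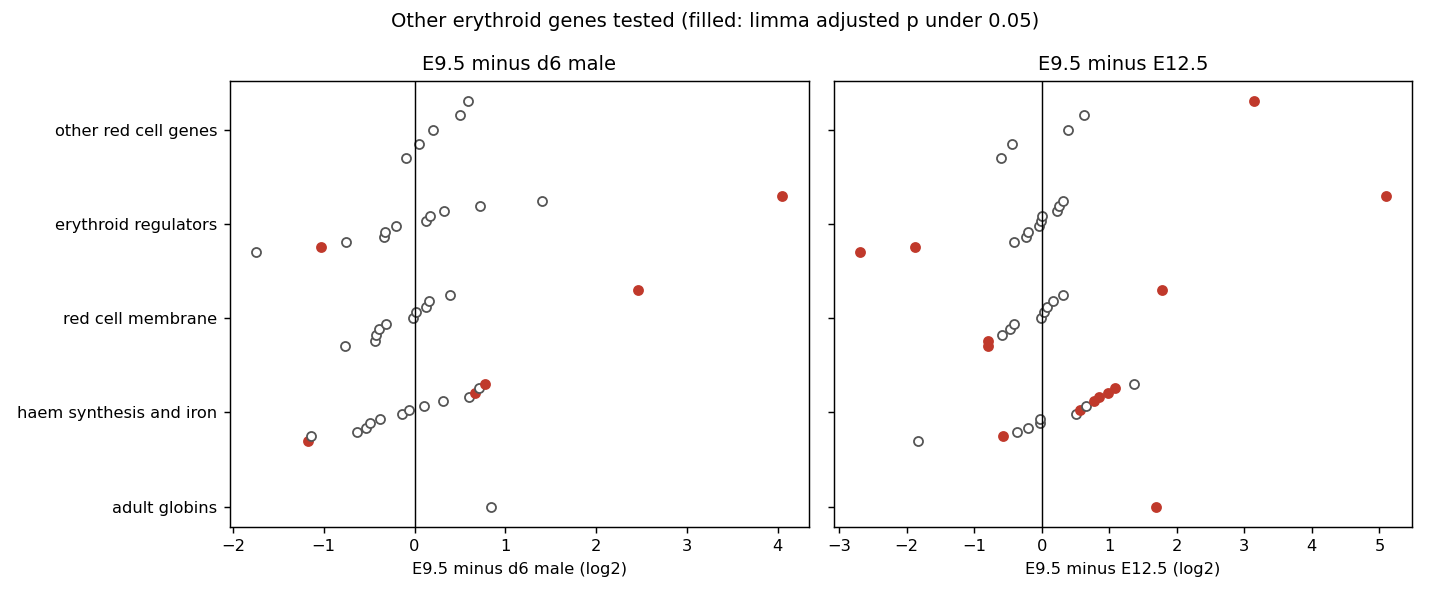
Difference in log2 signal (horizontal axes) of each other erythroid gene tested, by list (rows), for E9.5 minus d6 male (left) and E9.5 minus E12.5 (right); filled circles passed limma at adjusted p under 0.05. On the left, 4 genes are higher and 2 lower, with Slc4a1 at 2.46; Hemgn, at 4.05 against dim values, passed the filter only through E9.5.

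Markers of other cells moved with the embryonic globins in part. In bulk samples such as these, fewer cells of a type and less RNA per cell cannot be told apart. Of 9 mesenchyme markers tested, 6 were called higher in E9.5 against d6 male, where 4.55% of all genes tested were. Lum passed the filter only through E9.5, and without it 5 of 8 rose, with a median difference of 2.12. Col3a1, a collagen of connective tissue, measured 10.36 and 9.04 at E9.5, 7.21 and 7.87 in d6 male cells and 5.10 and 4.81 at E12.5, and it rose by 2.16 against d6 male (adjusted p = 0.0182, limma), a call lost without E9.5 replicate 1 or d6 male replicate 1 at up to 0.0908. The summed linear signal of the 10 mesenchyme markers was 1401 to 3329 in E9.5, 504 to 673 in d6 male and 295 to 317 in E12.5, with Dcn dim in all. The count of 6 was 0 without d6 male replicate 1, 1 without E9.5 replicate 1 and 3 without d6 male replicate 2. Against E12.5, 8 of the 9 were called higher, and this count was 3 without E12.5 replicate 1, 4 without E12.5 replicate 2 and 5 without E9.5 replicate 1. Of all genes tested, 10.7% were called higher in E9.5 against E12.5, and without Lum 7 of 8 mesenchyme markers were. The part of these markers in the globin result was not tested.

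Endothelial markers went the other way against d6 male, where 5 of 13 were lower in E9.5 and 0 higher. Of all genes tested, 6.04% were called lower and 4.55% higher. Against E12.5, 4 of the 13 were called higher in E9.5 and 0 lower, where 10.7% and 12.9% of all genes were. This count also depended on single arrays. The summed linear signal was 2540 to 2663 in E9.5, 4971 to 5025 in d6 male cells and 1020 to 1116 in E12.5. Of 11 leukocyte and macrophage markers 0 passed by limma in E9.5 against d6 male (1 at unadjusted p under 0.05). Ptprc, the pan-leukocyte gene CD45, was dim in both E9.5 arrays. The list summed to 716 to 821 in E9.5 and 726 to 734 in d6 male. Of 5 megakaryocyte and platelet markers 0 passed (1 unadjusted), with sums of 461 in E9.5 and 428 to 480 in d6 male. Of the 10 on the arrays, 5 were dim on both E9.5 arrays: Ppbp, Gp9, Gp5, Gp6 and Treml1. Pf4 was not dim, at 6.89 and 7.35 in E9.5 against 6.87 and 7.06 in d6 male. Nor was Itga2b, at 7.16 and 6.85 against 7.05 and 6.45. Of 8 mast cell markers 7, among them Cpa3 and Fcer1a, were dim on all 12 arrays and the 1 tested did not pass (0 unadjusted). Of 5 visceral endoderm and fetal liver markers 0 passed (1 unadjusted), with sums of 628 to 687 in E9.5 and 354 to 408 in d6 male, and Afp and Alb were dim in E9.5. The count was 3 without d3ag6 replicate 1 and 3 without d3ag6 replicate 2. Apoa1 passed the filter only through E9.5, so a call of it in E9.5 is no support. Without it 0 of 4 passed with all arrays. Ttr measured 7.68 and 7.84 at E9.5 and 6.84 and 6.60 in d6 male cells, and Apoa1 measured 5.70 and 5.68 against 3.73 and 4.06. These 2 and Rbp4, at 7.74 and 7.55 against 6.53 and 6.67, were separated from d6 male on both arrays. Such separation in the higher direction occurred for 20.9% of all genes tested. Apoa2 and Apob, the others tested, overlapped with d6 male. Rbp4 and Alb were named after their values were seen. Of the germ cell markers, all 9 on the arrays were above 4.81 on at least 1 array of every group, their sum being 28369 to 33298 in E9.5 and 38808 to 39001 in E12.5. In E9.5 against d6 male 1 of the 9 passed, Dazl, an RNA-binding protein gene of germ cells, which fell by 4.02 (adjusted p = 0.0038, limma) and measured 5.92 and 3.81 at E9.5. Dazl was called lower with any 1 array left out.

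**Figure D5:**
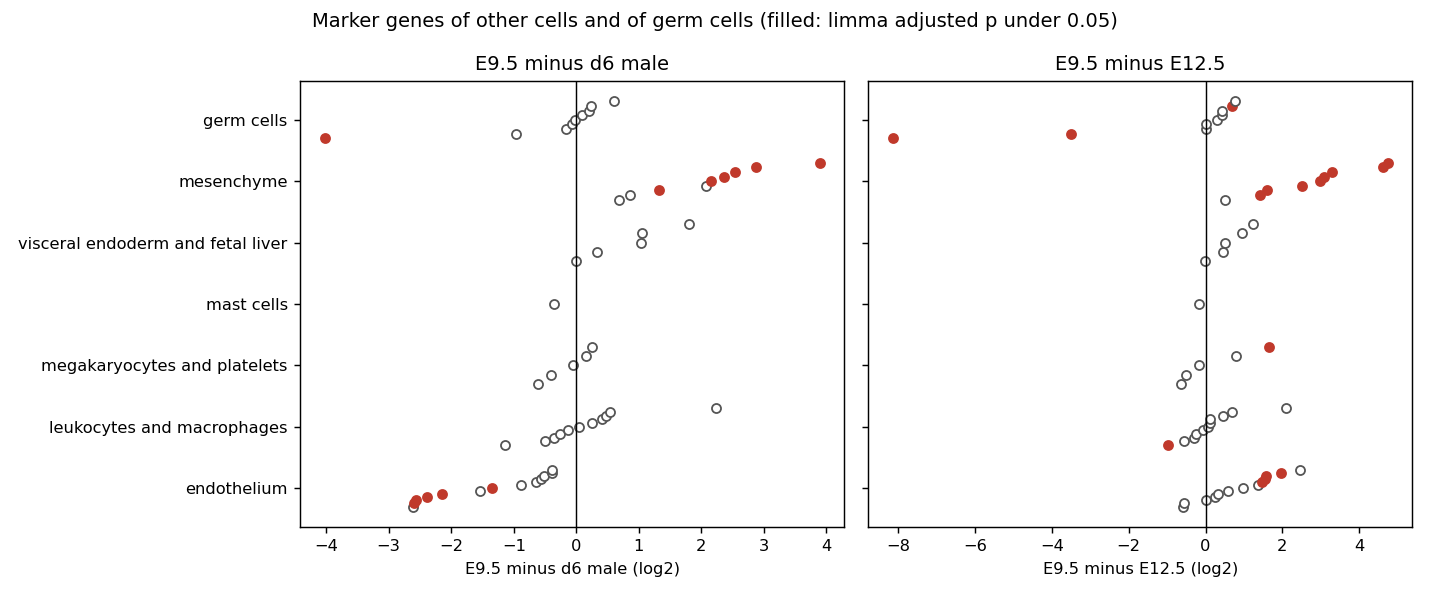
Difference in log2 signal (horizontal axes) of each marker gene tested, by cell type list (rows). E9.5 minus d6 male is on the left and E9.5 minus E12.5 on the right. Filled circles passed limma at adjusted p under 0.05. Of all genes tested, 4.55% and 10.7% were called higher in the same order. Lum, a mesenchyme marker, passed the filter only through E9.5. Mesenchyme markers lie to the right of 0 in both, 6 and 8 of the 9 passing; these counts were as low as 0 and 3 with 1 array left out.

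The 6 genes and probe sets annotated to several genes were left out of a ranking by likeness to the mean of the 3 globins. Alas2 and the shared adult globin probe sets thus could not appear in it. Of the genes ranked, those most like that mean over the 12 arrays included none from the erythroid lists. Only 43 of the 13436 genes tested were on these lists, before any range was required, so nothing is read from this. Among 2751 genes that ranged over at least 2 log2 units, the 10 highest values of Pearson's r ran from 0.92 to 0.96: Hoxb5os, Pax8, Lrrk2, Car14, Crabp2, Nepn, Elovl2, Nr2f1, Hoxb9 and Col2a1. As among the 6 genes, these values share the E9.5 arrays as their high end and are a description. Nepn, Elovl2 and Nr2f1 would not have passed the filter without the E9.5 arrays. Hoxb9, a homeobox gene of the posterior body axis, measured 8.77 and 7.29 at E9.5, 4.40 and 4.95 at E12.5 and 2.28 to 5.03 in the PGCLCs. Crabp2, which encodes a binding protein of retinoic acid, measured 11.02 and 9.35 at E9.5, 7.68 and 7.95 at E12.5 and 5.81 to 6.96 in the PGCLCs. Col2a1, the main collagen of cartilage and notochord, measured 8.95 and 7.61 at E9.5 and 3.44 to 5.24 in the other 10 arrays. For Hoxb9, Crabp2 and Col2a1, as for the globins, replicate 1 was the higher E9.5 array. For Lrrk2, which encodes a protein kinase, it was replicate 2, at 10.09 against 9.40.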

How the data were processed

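The deposited log2 values of 45101 probe sets on 12 arrays were used; the software and normalization behind them are not given in the sources used here, and the log base was taken from the value range, so it is an inference. Array medians were 4.73 to 4.87, and the number of arrays limits the precision. In GEO's platform annotation 34958 probe sets named 1 gene, 932 several and 9211 none; 34754 matched RefSeq. Values were quantile normalized (limma 3.58.1, R 4.3.3), and each gene was read from its own probe set with the highest mean. Genes above 4.81, the median of all values, on at least 2 arrays were tested (13436 of 18194) with lmFit and eBayes over all 12 arrays, with 1 mean per group and 6 residual degrees of freedom, two-sided, with Benjamini-Hochberg adjustment and a threshold of 0.05. The labels call the replicates biological. The fit of E9.5 against d6 male was tested on simulated data.

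The genes and lists were chosen with earlier results of these data known. Named genes were the 6, the other erythroid genes called, up to 3 markers of each list in list order, and the 10 most like the globin mean; exceptions are stated. Alternatives covered the filter, normalization, probe set choice, replicate block, eBayes options, arrays fitted and each array left out; the 4-array fit and the probe set fit were added after seeing the data. E9.5 and d6 male share an array code for each replicate number, and their replicate differences correlated at 0.55. The main fit has no block; fits with the replicate number or the code as a block are alternatives.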

Additional observations from a re-analysis of the deposited data

How the results depend on the processing

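With 2 arrays per group, most counts of other erythroid genes depended on single arrays. Leaving out each array in turn, the counts ran from 4 to 5 for E9.5 against d6 male (6 with all arrays), 2 to 9 for E9.5 against d6 female (9), 4 to 14 for E9.5 against E12.5 (14), 2 to 11 for E12.5 against d6 female (10), 0 to 2 for d3ag6 against d6 female (1) and 0 to 2 for d6 female against d3 (1). Fitted on only the arrays compared, 0 were called for E9.5 against d6 male (16 at unadjusted p under 0.05 in the limma fit of all arrays), 2 for E9.5 against d6 female, 2 for d3ag6 against d6 female and 0 for d6 female against d3 (10 unadjusted in the limma fit of all arrays). The added 4-array block fit called 3 for E9.5 against d6 male. No filter gave 5 for E12.5 against d6 female, the 75th percentile filter gave 5 for E9.5 against d6 female and 2 for d6 female against d3, and the values as deposited gave 4 for E9.5 against d6 female. With the replicate block the counts were 7, 9, 15, 10, 3 and 1 in the order above, a change of over 1.5 times only for d3ag6 against d6 female (3); in every pair of groups other than E9.5 and d6 male the replicates share only a number, and their differences correlated from -0.25 to 0.33. That block also brought 1428361_x_at and the beta probe set past the threshold in E12.5 against d6 female, at 0.0388 each (limma). The cause of these changes was not tested. The E9.5 excess over d6 male ran, with 1 array left out, from 7.14 to 8.14 for Hba-x, 8.68 to 11.3 for Hbb-y, 4.12 to 5.99 for Hbb-bh1, 3.33 to 5.17 for Alas2, -0.19 to 0.48 for Gata1 and 0.51 to 1.64 for Klf1. The mean of all probe sets gave 6.56 for Hbb-bh1 in place of 5.06. Signal near background limits every PGCLC level of Hba-x, Hbb-y and Alas2.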

Other observations

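In d3ag6 PGCLCs, some liver and endoderm transcripts were higher in replicate 2 than in replicate 1. They are named here after their values were seen. Alb, which encodes serum albumin, measured 11.12 in replicate 2 and 3.21 in replicate 1, and 2.40 to 4.71 in the other 10 arrays. Ttr, which encodes transthyretin, measured 10.10 and 6.86, and Apoa1, an apolipoprotein gene, 8.33 and 4.70 in the same order. Of the same list, Apoa2 measured 8.25 and 6.35, and Rbp4 8.42 and 6.81. Not all of the list followed: Afp was dim on both, at 4.43 and 4.38, and Apob measured 5.52 and 5.21. On the same arrays Hba-x stayed dim, at 4.04 in replicate 2 and 3.51 in replicate 1, and Hbb-y at 2.97 and 2.45. The difference was not tested, since each value is from 1 array.

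In E9.5 PGCs, Ctss, a protease gene of macrophages, measured 6.75 in replicate 1 and 1.65 in replicate 2, the replicate order of the globins, while Lyz2 measured 4.79 and 4.0, both dim.

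Dazl, a germ cell RNA-binding protein gene, measured 5.92 and 3.81 at E9.5, where the globins were highest, and 12.96 and 13.04 at E12.5.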
